A study of Oryza sativa with 4 samples.

Results

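The KNOTTED1-like homeobox (KNOX) genes were followed in rice panicles carrying a construct against RFL and in wild type panicles. The array has 21495 probes that are not controls, each named by the accession of a rice cDNA. Of these, 6 make up the KNOX group, found by accession. Class 1 holds 5 of them: HOS3 (AK111877, also known as OSH15), HOS9 (AK111878, also known as OSH71), OSH43 (AK107296), a cDNA whose description names the wheat gene knox1b (AK107637), and a cDNA whose description names the Arabidopsis gene At1g23380, known as KNAT6 (AK068954). Class 2 holds 1, HOS66 (AK060316). The description of HOS66 states its class. The other cDNAs were classed through the gene their description names, and for AK107637 and AK068954 that gene belongs to another species. HOS3, HOS9, OSH43, AK107637 and HOS66 stood well above background in both channels of all 4 arrays. All 6 passed the filter on dim probes, and no member was saturated or an outlier spot on any array.

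KNOX proteins are homeodomain transcription factors that act as pairs with BELL homeodomain proteins. Class 1 genes are expressed in shoot and inflorescence meristems, where they keep cells from differentiating. Class 2 genes are expressed more widely, mostly in differentiating organs, and in Arabidopsis they oppose class 1 activity. In several plant species class 1 proteins lower gibberellin levels and raise cytokinin synthesis, and in rice OSH1 acts on brassinosteroid breakdown. RFL is the LEAFY gene of rice and acts in panicle branching, while LEAFY in Arabidopsis sets floral meristem identity.

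Each of the 4 arrays carried RNA of transgenic panicles in one dye and RNA of wild type panicles in the other, all from branching panicles of the japonica cultivar TP309. On 2 arrays the transgenic plants carried an RFL dsRNAi construct, which makes double-stranded RNA, and on 2 arrays they expressed an RFL antisense RNA. For each construct, replicate 1 had the transgenic RNA in Cy5 and replicate 2 had it in Cy3. The labels give neither the promoter of the constructs nor the number of lines or plants pooled. The design text of the series speaks of independent pools, but the labels do not settle whether the antisense arrays carried independent RNA pools. The p-values thus measure the spread between arrays of a construct, which may be technical. Depending on the array, 16106 to 18191 transgenic and 14722 to 17270 wild type signals stood well above background, and 17997 probes were tested. The dsRNAi arrays were scanned on another day and read with another version of the scanner software than the antisense arrays, so construct, scan day and software cannot be told apart. The level of RFL itself was not analysed here.

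The members are described first by their log2 ratio of transgenic over wild type on each array. HOS3, which in rice acts in the shoot meristem and in internode growth, had ratios of 0.68 and 0.84 on the dsRNAi arrays and of 2.01 and 2.25 on the antisense arrays. HOS9 had 0.23 and 0.41 on the dsRNAi arrays and 1.29 and 1.38 on the antisense arrays. AK107637 had 0.43 and 0.23 on the dsRNAi arrays and 0.78 and 1.23 on the antisense arrays. These class 1 cDNAs were thus above 0 on every array, with every antisense value above every dsRNAi value. OSH43 had -0.60 and -0.45 on the dsRNAi arrays and 0.14 and 0.18 on the antisense arrays. Its sign thus differed between the constructs. AK068954 had -0.41 and -0.34 on the dsRNAi arrays and -0.78 and -0.25 on the antisense arrays. It was below 0 on all 4 arrays, and the antisense values lay on both sides of the dsRNAi values. HOS66, the class 2 cDNA, had 1.54 and 1.30 on the dsRNAi arrays and 4.07 and 4.68 on the antisense arrays. Of the members, 4 were above 0 on all 4 arrays, where 23.2% of all tested probes were, and 1 was below 0 on all 4, where 21.3% were.

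**Figure D1:**
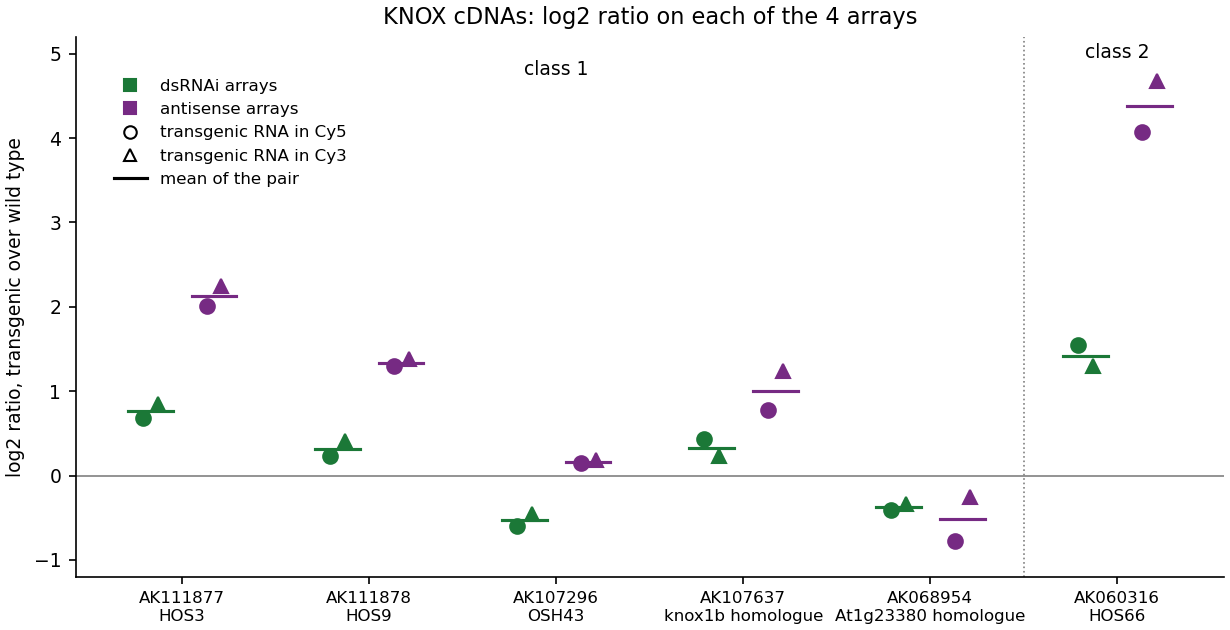
Log2 ratio of transgenic over wild type (vertical axis) for each KNOX cDNA (horizontal axis) on the dsRNAi arrays (green) and the antisense arrays (purple), with circles for transgenic RNA in Cy5, triangles for Cy3 and a bar at the mean of each pair. HOS66 has the highest point of every array, and AK068954 is below 0 on all 4.

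The first comparison set transgenic panicles against wild type panicles as the mean of both constructs. HOS66 was 7.46-fold higher in transgenic panicles (13.9-fold by the deposited log ratio), HOS3 2.73-fold, HOS9 1.78-fold and AK107637 1.59-fold. AK068954 was 1.36-fold lower in transgenic panicles, and 3.15-fold lower by the deposited log ratio, which has no offset. OSH43 did not pass the test. With limma's test and Benjamini-Hochberg adjustment at 0.05 over all probes, 4 members rose and 1 fell, while of all tested probes 41.7% passed, 20.5% upward and 21.3% downward. In class 1, 3 of 5 rose and 1 of 5 fell. The log2 ratio of HOS66 was 2.90 ± 0.11 (SE, n = 4 arrays, adjusted p = 1.73e-06), rank 51 from the highest of 17997. HOS3 gave 1.45 ± 0.09 (adjusted p = 9.24e-06) and stood at rank 339. HOS9 gave 0.83 ± 0.08 (adjusted p = 0.000129), and AK107637 gave 0.67 ± 0.10 (adjusted p = 0.00119). These ranks show HOS66 and HOS3 near the upper end of the array. AK068954 gave -0.44 ± 0.10 (adjusted p = 0.0106), and OSH43 -0.18 ± 0.08 (adjusted p = 0.103). The median was 0.75 over the 6 members and 0.67 over class 1, against -0.0016 over all tested probes. In panicle RNA, a change in the number of cells that express a gene and a change in RNA per cell cannot be told apart. The SE come from the spread within constructs. With construct as a random block, or with median centring in place of loess, 2 members, HOS66 and HOS3, still passed, and with each pair averaged to 1 value none of the 6 did (3 at an unadjusted p under 0.05 by limma).

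With dsRNAi, HOS66 and HOS3 rose and OSH43 fell. HOS66 stood at 1.42 ± 0.16 (SE, n = 2 arrays, adjusted p = 0.000649), which is 2.68-fold and rank 149 of 17997. HOS3 stood at 0.76 ± 0.12 (adjusted p = 0.00314). OSH43 stood at -0.53 ± 0.11 (adjusted p = 0.0119), and without dsRNAi replicate 1 its call was lost (-0.45, adjusted p = 0.0937). With median centring all 3 calls were lost, at 1.73 for HOS66 (adjusted p = 0.132), 1.01 for HOS3 (0.817) and -0.81 for OSH43 (0.895). The other class 1 cDNAs did not pass. HOS9 gave 0.32 (adjusted p = 0.0819), AK107637 0.33 (adjusted p = 0.13) and AK068954 -0.37 (adjusted p = 0.105). In all, 2 members rose and 1 fell, while 25.8% of all tested probes passed, 11.2% upward and 14.6% downward. The members' median was 0.33, against 0.011 over all probes.

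With antisense, 4 members rose and 1 fell, while 37.2% of all tested probes passed, 18.9% upward and 18.3% downward. HOS66 was 20.8-fold higher in antisense panicles, at a log2 ratio of 4.38 ± 0.16 (SE, n = 2 arrays, adjusted p = 1.6e-06) and rank 36 of 17997. HOS66 was 34.6-fold higher with an offset of 10, 57.3-fold by the series table and 63.1-fold (5.98) by the deposited log ratio, so its size moved with the background correction. HOS3 was 4.38-fold higher, at 2.13 ± 0.12 (adjusted p = 9.43e-06) and rank 300. HOS9 rose by 1.34 ± 0.11 (adjusted p = 7.71e-05) and AK107637 by 1.01 ± 0.14 (adjusted p = 0.00102). The rise thus took in the class 2 cDNA and 3 of the 5 class 1 cDNAs. AK068954 fell by 0.52 ± 0.15 (adjusted p = 0.0274), a call lost without antisense replicate 1 (-0.25, adjusted p = 0.462). With median centring the calls of HOS9 (adjusted p = 0.209), AK107637 (0.587) and AK068954 (1.00) were lost. OSH43 gave 0.16 (adjusted p = 0.31). The members' median was 1.17, against 0.0013 over all probes. Both constructs' values come from the same fit, which shares its estimate of the spread.

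**Figure D2:**
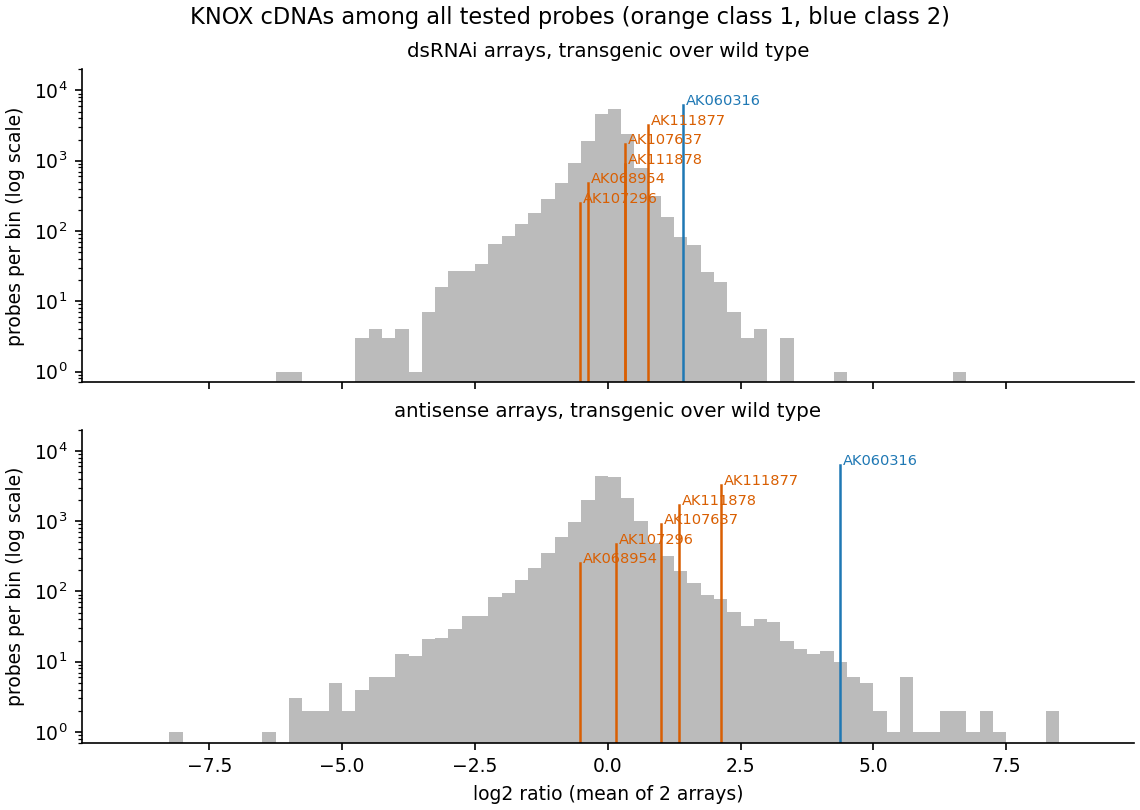
Histograms of the log2 ratio of transgenic over wild type (horizontal axis, mean of 2 arrays) over all 17997 tested probes, dsRNAi arrays above and antisense arrays below, with the number of probes per bin on a log scale (vertical axis). Orange lines mark class 1 and blue lines class 2 KNOX cDNAs (line heights only separate the labels), and HOS66 (AK060316) stands at 1.42 with dsRNAi and at 4.38 with antisense.

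The next comparison set class 1 against class 2 within each array. On every array HOS66 was above all 5 class 1 cDNAs. On dsRNAi replicate 1 class 1 had a median log2 ratio of 0.23, with values between -0.60 and 0.68, against 1.54 for HOS66. On dsRNAi replicate 2 class 1 had a median of 0.23, with values between -0.45 and 0.84, against 1.30 for HOS66. The gap between the class 1 median and class 2 was thus -1.31 and -1.07 on the dsRNAi arrays. On antisense replicate 1 class 1 had a median of 0.78, with values between -0.78 and 2.01, against 4.07 for HOS66. On antisense replicate 2 class 1 had a median of 1.23, with values between -0.25 and 2.25, against 4.68 for HOS66. The gap was thus -3.29 and -3.45 on the antisense arrays, larger than on the dsRNAi arrays. Of all tested probes, 187 (1.04%) lay above the highest class 1 value on all 4 arrays. The mean gap over the arrays was -2.28, with a spread of 0.147 (SD) between arrays of a construct. With 1 cDNA in class 2, this describes HOS66 against class 1 and not the classes, and no test was made.

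The members were then compared between the constructs, as dsRNAi minus antisense. Of the 6, 4 had a lower ratio with dsRNAi and 0 a higher ratio, while 16.5% of all tested probes passed, 10.1% with a lower and 6.33% with a higher ratio in dsRNAi. The difference was -2.96 ± 0.23 for HOS66 (SE, adjusted p = 0.000309) and -1.37 ± 0.17 for HOS3 (adjusted p = 0.00175). It was -1.02 ± 0.16 for HOS9 (adjusted p = 0.00516) and -0.69 ± 0.16 for OSH43 (adjusted p = 0.0242). By the deposited log ratio HOS66 gave -4.36 and OSH43 -1.77, and with median centring all 4 calls were lost (adjusted p = 0.238 for HOS66 and 1.00 for the others). OSH43 passed although its own ratio was small, since its dsRNAi arrays were below 0 and its antisense arrays above. The call of OSH43 was lost when antisense replicate 1 was left out (adjusted p = 0.0679), and likewise for antisense replicate 2 (0.0835) and dsRNAi replicate 1 (0.0849). AK107637 gave -0.68 ± 0.20 (adjusted p = 0.0586), and it passed without antisense replicate 1 (-0.90, adjusted p = 0.0159). AK068954 gave 0.14 ± 0.21 (adjusted p = 0.72), and without antisense replicate 1 it gave -0.13 (adjusted p = 0.857). For 5 of the 6 both dsRNAi ratios lay below both antisense ratios, which 29.9% of all tested probes showed, and for 0 they lay above, which 26.9% showed.

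The channels were then read apart, as normalized log2 intensities, to see in which RNA the constructs' arrays differed. A level is compared only within a probe. HOS66 had 10.94 and 10.90 in the transgenic and 9.40 and 9.60 in the wild type channels of the dsRNAi arrays. On the antisense arrays it had 11.28 and 11.08 in the transgenic and 7.21 and 6.40 in the wild type channels. The transgenic channels thus lay close together, while the wild type channels of the antisense arrays were the lowest. HOS3 had 12.72 and 12.81 in the transgenic and 12.03 and 11.96 in the wild type channels of the dsRNAi arrays. On the antisense arrays it had 12.53 and 12.59 in the transgenic and 10.52 and 10.34 in the wild type channels. Here too the wild type channels of the antisense arrays were the lowest. HOS9 had 10.83 and 11.06 in the transgenic and 10.60 and 10.65 in the wild type channels of the dsRNAi arrays. The antisense arrays gave 11.40 and 11.45 in the transgenic and 10.11 and 10.07 in the wild type channels. Its transgenic channels were higher and its wild type channels lower on the antisense than on the dsRNAi arrays.

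AK107637 had 12.47 and 12.12 in the transgenic and 12.04 and 11.88 in the wild type channels of the dsRNAi arrays. On the antisense arrays it had 12.61 and 12.91 in the transgenic and 11.83 and 11.68 in the wild type channels. On each array its transgenic channel was above its wild type channel, though with dsRNAi its ratio did not pass (limma, adjusted p = 0.13). OSH43 had 6.68 and 6.95 in the transgenic and 7.28 and 7.40 in the wild type channels of the dsRNAi arrays. The antisense arrays gave 6.75 and 6.76 in the transgenic and 6.60 and 6.58 in the wild type channels. The wild type channels of the dsRNAi arrays were thus the highest for OSH43. AK068954 had 6.25 and 6.42 in the transgenic and 6.67 and 6.76 in the wild type channels of the dsRNAi arrays. On the antisense arrays it had 6.38 and 6.68 in the transgenic and 7.16 and 6.92 in the wild type channels. On the dsRNAi arrays AK068954 was well above background in the transgenic channel on 1 of 2 arrays and in the wild type channel on 1 of 2, in Cy5 each time.

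**Figure D3:**
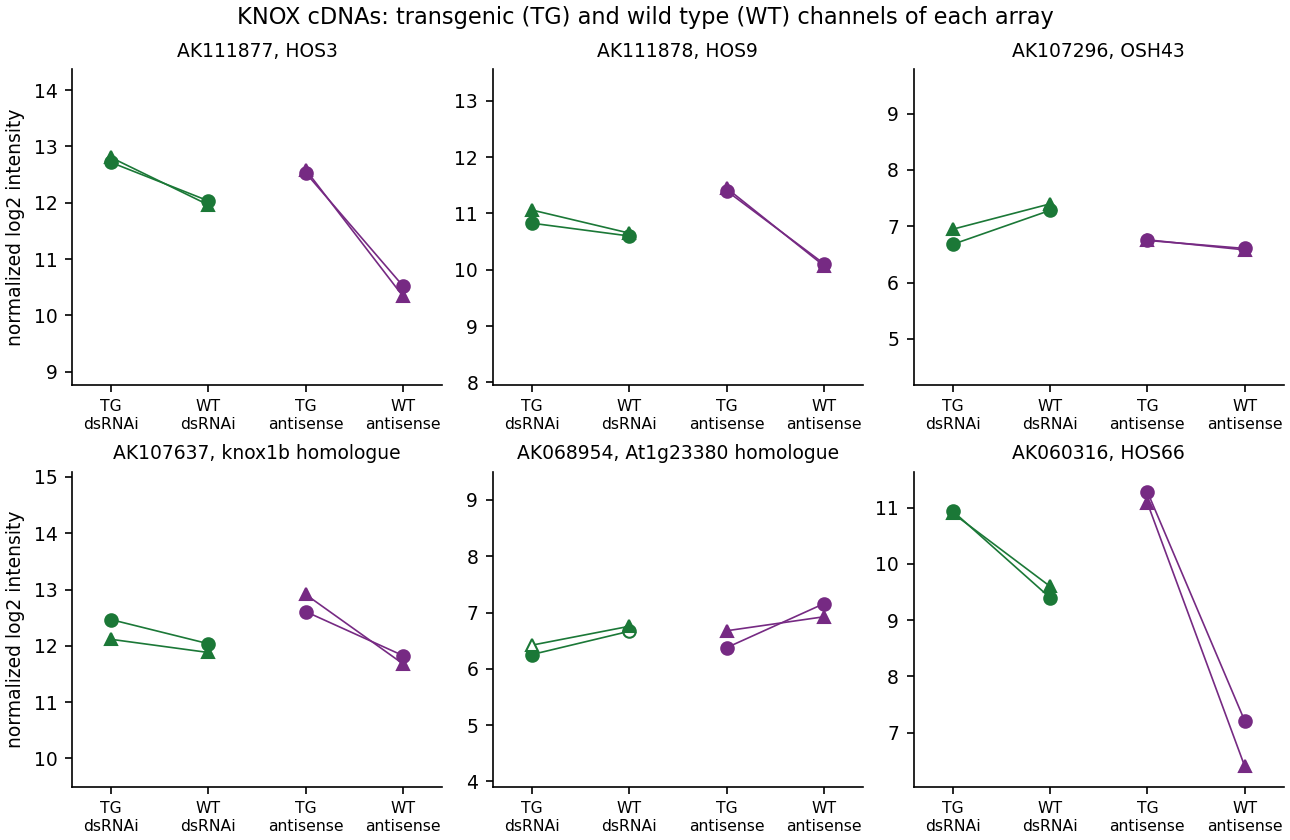
Normalized log2 intensity (vertical axis, the same span in every panel) of each KNOX cDNA in the transgenic (TG) and wild type (WT) channels of the dsRNAi arrays (green) and antisense arrays (purple), with a line joining the channels of an array, circles for transgenic RNA in Cy5 and triangles for Cy3. Open symbols were not well above background, and the lowest HOS66 values are the wild type channels of the antisense arrays, at 7.21 and 6.40.

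In limma's separate channel fit, none of the 6 members differed between the transgenic channels of the dsRNAi and the antisense arrays (adjusted p between 0.0821 and 0.874), while 2.45% of all tested probes did, 1.32% higher and 1.13% lower on the dsRNAi arrays. At an unadjusted p under 0.05 by limma, 2 members differed there, HOS9 and AK107637. In the wild type channels 4 of the 6 were higher on the dsRNAi arrays, while 32.3% of all tested probes passed there, 16.4% higher and 15.9% lower. In the wild type channels the dsRNAi arrays were 6.48-fold higher for HOS66, at a log2 difference of 2.70 ± 0.22 (adjusted p = 1.48e-05), and 2.97-fold higher for HOS3, at 1.57 ± 0.13 (adjusted p = 1.59e-05). OSH43 differed by 0.75 ± 0.13 (adjusted p = 0.00189) and HOS9 by 0.54 ± 0.13 (adjusted p = 0.0101). AK107637 gave 0.21 (adjusted p = 0.37) and AK068954 -0.33 (adjusted p = 0.134). In the transgenic channels the difference was -0.26 ± 0.22 for HOS66 (adjusted p = 0.612) and 0.20 ± 0.13 for HOS3 (adjusted p = 0.484). It was -0.48 ± 0.13 for HOS9 (adjusted p = 0.0821) and -0.47 ± 0.16 for AK107637 (adjusted p = 0.169). OSH43 gave 0.06 ± 0.13 (adjusted p = 0.874) and AK068954 -0.19 ± 0.16 (adjusted p = 0.606). The dsRNAi and antisense arrays did not overlap in the wild type channels for 5 members with dsRNAi higher (31.8% of all tested probes) and 1 with dsRNAi lower (34.3%). In the transgenic channels they did not overlap for 1 member with dsRNAi higher (19.9%) and 3 with dsRNAi lower (29.4%). For HOS66, HOS3 and OSH43 the difference between constructs thus had its larger term in the wild type channels. For HOS9 the terms were close in size, at 0.54 in the wild type and -0.48 in the transgenic channels, and only the former passed. Levels set across arrays rest on the normalization between them.

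**Figure D4:**
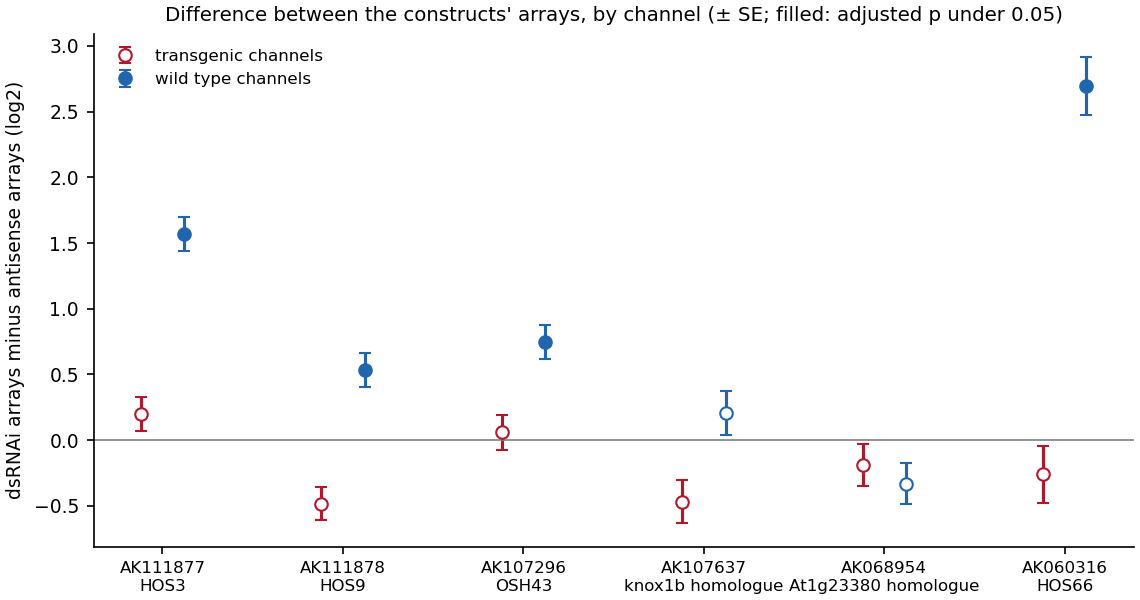
Difference in normalized log2 intensity between the dsRNAi and the antisense arrays (vertical axis, ± SE) for each KNOX cDNA, in the transgenic channels (red) and the wild type channels (blue), with filled points at an adjusted p under 0.05. Filled points are found only in the wild type channels, for HOS3, HOS9, OSH43 and HOS66, and the highest is HOS66 at 2.70.

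No member passed in a test of dye orientation. In a fit with a dye term, 0 of 6 members and 0 of 17997 probes passed with limma, the lowest adjusted p among the members being 0.543. At an unadjusted p under 0.05 there were 0 members and 1860 probes. The dye term adds a coefficient to a fit on 4 arrays, so a dye effect could be missed.

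Other cDNAs with nearly the same 4 ratios were found for each member called in the mean, as the 3 described probes, of 10814, with the smallest root mean square difference. For HOS3 these were homologues of an Arabidopsis protein kinase (AK073557, 0.0475), of the bean bZIP protein TGA1.1 (AK107028, 0.0579) and of the Arabidopsis protein At5g60710 (AK064311, 0.0784). AK073557, for example, had 0.76 and 0.82 on the dsRNAi and 1.95 and 2.25 on the antisense arrays. For HOS9 they were homologues of a barley signal recognition particle subunit (AK068958, 0.0674), a potato receptor-like kinase (AK103518, 0.08) and a dynamin-like protein (AK069270, 0.0915). For AK107637 they were homologues of the Arabidopsis trithorax protein TX5 (AK103664, 0.075), of a quinone oxidoreductase (AK069384, 0.091, not well above background in any wild type channel) and of a barley peptide transporter (AK070036, 0.0987). For AK068954 they were homologues of a serine palmitoyltransferase (AK105851, 0.0534), a subunit of protein phosphatase 2A (AK108850, 0.0542) and a maize kinesin (AK058804, 0.0704). For HOS66 the nearest lay farther off: a rice lectin-like protein (AK062520, 0.197), a cytochrome P450 (AK105519, 0.206) and a peroxidase (AK060007, 0.232). AK062520 had 1.57 and 1.57 on the dsRNAi and 4.05 and 4.39 on the antisense arrays.

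Genes that work with KNOX proteins were then read from lists found by probe description, with counts from the mean of both constructs, in which 41.7% of all tested probes passed, 20.5% upward and 21.3% downward. Of the BELL homeodomain partners, 8 cDNAs were found, 7 were tested, and 3 rose and 0 fell, 42.9% in all, close to the share over all probes, with a median of 0.41. AK099829, a homologue of potato Bel30, had 0.86 and 0.79 on the dsRNAi and 3.14 and 3.85 on the antisense arrays, with a mean of 2.16 ± 0.12 (SE, n = 4, adjusted p = 7.07e-06). AK070465, likewise described by Bel30, had 0.73 and 0.61 on the dsRNAi and 2.20 and 2.25 on the antisense arrays, with a mean of 1.45 ± 0.08 (adjusted p = 6.2e-06). The wild type channel of AK099829 was well above background on 1 of the 2 antisense arrays, and its antisense ratio of 3.49 was 5.46 by the deposited log ratio. Both cDNAs had higher values on the antisense than on the dsRNAi arrays, like HOS66 and HOS3. Their wild type channels were higher on the dsRNAi arrays by 2.40 and 1.38 (adjusted p = 4.49e-05 and 9.24e-05), while their transgenic channels differed by -0.26 and -0.17 (adjusted p = 0.627 and 0.623). The third that rose was AK064665, a homologue of maize KIP, a BELL protein found through its binding to KNOTTED1, at 0.64 ± 0.12 (adjusted p = 0.00318).

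Of the list of KNOX repressors and their family, 4 cDNAs were tested, and 2 rose and 0 fell (50% against 41.7% of all probes), with a median of 0.19. OsRS2 (AK068492), whose maize counterpart ROUGH SHEATH2 keeps KNOX genes off in leaves, had 0.51 and 0.85 on the dsRNAi and -0.20 and 0.29 on the antisense arrays. Its mean was 0.36 ± 0.11 (adjusted p = 0.0311). With dsRNAi it rose by 0.68 (adjusted p = 0.0157), and with antisense it stood at 0.04 (adjusted p = 0.857). The homologue of Arabidopsis LBD6 (AK071407), the gene also known as AS2, which represses KNOX genes in leaves, had 0.71 and 0.66 on the dsRNAi and 0.17 and 0.15 on the antisense arrays, with a mean of 0.42 ± 0.08 (adjusted p = 0.00339). Both were thus higher in ratio on the dsRNAi arrays, although the difference between constructs did not pass for either (adjusted p = 0.093 and 0.0588). The call of OsRS2 in the mean held in 8 of 15 alternatives. It was lost without antisense replicate 2 (adjusted p = 0.16) or dsRNAi replicate 2 (0.115), with the deposited log ratio (0.0681), the series table (0.0799), median centring (0.72), the random block (0.322) and both pairs averaged (0.457).

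Of the gibberellin oxidases, which make or inactivate the hormone, 11 cDNAs were found, 10 were tested, and 0 rose and 7 fell (70% passed, against 41.7% of all probes), with a median of -0.31. With dsRNAi 1 rose and 5 fell, where 25.8% of all probes passed. With antisense 0 rose and 5 fell, where 37.2% of all probes passed. The largest fall was in AK072410, a homologue of lettuce gibberellin 3-beta-hydroxylase, at -2.30 ± 0.09 (adjusted p = 1.92e-06), with -2.22 and -2.27 on the dsRNAi and -2.56 and -2.17 on the antisense arrays. Of the 5 that synthesize gibberellin by C-20 oxidation, 4 fell. They include AK107142 at -1.10 ± 0.08 (adjusted p = 3.3e-05) and AK061017 at -0.81 ± 0.08 (adjusted p = 0.000114). Of the 4 that inactivate it, 2 cDNAs of OsGA2ox3 fell in the mean, and each of them fell with dsRNAi and did not pass with antisense. AK108802 gave -0.82 with dsRNAi (adjusted p = 0.00202) and -0.08 with antisense (adjusted p = 0.67), with a mean of -0.45 ± 0.08 (adjusted p = 0.00374). AK101713 gave -0.82 and -1.21 on the dsRNAi and 0.58 and 0.21 on the antisense arrays, of opposite sign. Its difference between constructs was -1.41 (adjusted p = 0.0038), and its mean of -0.31 ± 0.10 (adjusted p = 0.0465) lost its call without antisense replicate 2 (0.215) or dsRNAi replicate 2 (0.189), among others. A further OsGA2ox3 cDNA (AK063973) gave 0.26 (adjusted p = 0.114) and OsGA2ox1 (AK101414) 0.14 (adjusted p = 0.229). Over the alternatives AK063973 ran from 0.51 to 1.17 with dsRNAi and from -0.45 to 0.11 with antisense. The cDNAs described as OsGA2ox3 thus differed in sign among themselves with dsRNAi.

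Of cytokinin synthesis, 2 isopentenyltransferase cDNAs were tested and 0 passed with limma (0.05 and -0.03, adjusted p = 0.677 and 0.779; 0 at an unadjusted p under 0.05). Of the response regulators, which relay the cytokinin signal, 10 were tested, and 5 rose and 1 fell (60% passed, against 41.7% of all probes), with a median of 0.26. AK099581, a homologue of maize ZmRR9, rose by 1.47 ± 0.10 (adjusted p = 2.02e-05), and AK058585, a homologue of ZmRR6, fell by 0.94 ± 0.12 (adjusted p = 0.000476). Of the 3 brassinosteroid synthesis cDNAs, 1 rose (33.3%, below the share over all probes), the homologue of cotton DET2 (AK101345), at 0.47 ± 0.09 (adjusted p = 0.00371). Of the cDNAs described by NAM or CUC proteins, a family whose founders mark organ boundaries, 13 were tested, and 7 rose and 3 fell (76.9% passed, against 41.7% of all probes), with a median of 0.28. AK070982, a homologue of Arabidopsis At4g28530, had the largest rise at 2.95 ± 0.12 (adjusted p = 2.05e-06), and AK110684, a homologue of petunia NH11, the largest fall at -0.49 ± 0.10 (adjusted p = 0.0053). The wild type channel of AK070982 was well above background on 1 of the 2 antisense arrays, and its antisense value ran from 4.43 to 7.16 over the alternatives. The search took in NAM-like proteins at large, and not boundary genes alone.

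**Figure D5:**
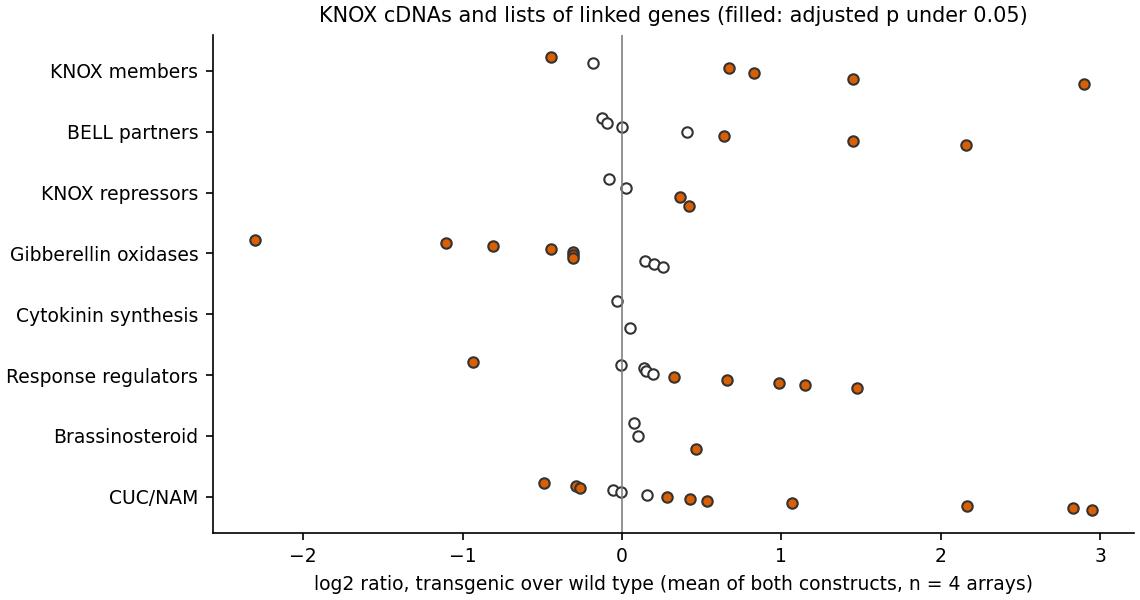
Log2 ratio of transgenic over wild type in the mean of both constructs (horizontal axis, n = 4 arrays), with 1 point per tested cDNA for the KNOX members and each list of linked genes (vertical axis), filled at an adjusted p under 0.05. All filled gibberellin oxidases are below 0, and all filled BELL partners are above 0.

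Markers of other tissues were read in the same contrasts, and their part in the KNOX values was not tested. The share that passed in the mean was 41.9% for photosynthesis, 42.9% for anther and pollen and 56% for secondary wall cDNAs, against 41.7% of all tested probes. Of 36 photosynthesis cDNAs, 31 were tested, and 5 rose and 8 fell in the mean of both constructs. Their summed normalized intensity was 43355 and 43208 in the transgenic and 56671 and 58420 in the wild type channels of the dsRNAi arrays. The antisense arrays gave 25014 and 23055 in the transgenic and 20496 and 22612 in the wild type channels. Photosynthesis sums were thus higher on the dsRNAi arrays in both kinds of channel. Of 13 anther and pollen cDNAs, 7 were tested, and 3 rose and 0 fell. Their sum was 12531 and 14943 in the transgenic and 10623 and 11304 in the wild type channels of the dsRNAi arrays, and 14554 and 11224 in the transgenic and 7182 and 6821 in the wild type channels of the antisense arrays. The anther and pollen sum was thus lowest in the wild type channels of the antisense arrays. The levels of HOS66, HOS3, HOS9, AK107637 and OSH43 were lowest there too, and that of AK068954 was not. The photosynthesis, BELL, CUC/NAM, response regulator and brassinosteroid sums were also lowest there, while the secondary wall and gibberellin oxidase sums were highest there. The KNOX repressor and cytokinin synthesis sums were neither. The share of all tested probes with their lowest levels in those channels was not counted. Of 31 secondary wall cDNAs, 25 were tested, and 6 rose and 8 fell. Their sum was 14993 and 14984 in the transgenic and 19184 and 20795 in the wild type channels of the dsRNAi arrays, and 13872 and 13423 in the transgenic and 22462 and 21881 in the wild type channels of the antisense arrays. Secondary wall sums were thus lower in transgenic than in wild type channels with both constructs.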

How the data were processed

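The deposited spot intensities of both channels come from Agilent Feature Extraction (versions 9.1.3.1 for dsRNAi and 8.1.1.1 for antisense arrays), per the file headers. The log10 ratio of Cy5 over Cy3 in those files was deposited with the software's own background and dye correction, per the file headers. The series table holds deposited log2 ratios. They correlated with the scanner ratio at 0.839 and 0.852 (dsRNAi replicates 1 and 2) and at 0.959 and 0.975 (antisense replicates 1 and 2). This gave direction (Cy5 over Cy3) but neither scale nor centring. The scale was taken as log2, and HOS3 on antisense replicate 1, for example, had 2.21, against 2.09 by the scanner ratio in log2. As transgenic over wild type, the medians of the series table columns were 0.0842, 0.0521, -0.0046 and -0.0366. The labelling text of the swapped arrays contradicts the label fields on the dye. The label fields were used, and ratios turned by them correlated at 0.816 (dsRNAi) and 0.926 (antisense) across probes.

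Signals were corrected with normexp (offset 50) and normalized by loess within arrays, with control spots given no weight in the loess. Control spots were then left out, and outlier spots were set to missing after the normalization. The filter asked for a signal well above background on 2 or more arrays, in either channel. It left 18096 probes, and 17997 of these, with values on all 4 arrays, were tested. Limma (3.58.1, R 4.3.3) fitted 1 coefficient per construct with eBayes and Benjamini-Hochberg adjustment at 0.05. SE are moderated. Channels were fitted apart after Aquantile (intraspot correlation 0.245). The fit was tested on simulated data, with 200 changed probes of 17997. For the mean of both constructs it recovered 0% at a log2 change of 0.5, 72.5% at 1 and 97% at 2. False calls numbered 0, 5 and 6. In the data 41.7% of all tested probes passed, so the adjustment was less strict there than in the simulation. The simulated rates thus do not give the recovery in the data, where means under 0.5 in size were called (-0.44 for AK068954). Small changes could still be missed.

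A search of the descriptions for KNOX names found 11 probes: the 6 members, the KIP homologue and 4 unrelated clones. In the reference table of rice genes (RefSeq), 4 of 6 members were found by symbol and 0 by accession. Searches for ovate, YABBY and WUSCHEL found 0 probes. Members and lists were chosen with earlier results of these data known. The term that brought in the KIP homologue was added after the descriptions were seen, and without it 2 of 6 tested BELL cDNAs rose. Besides members, the text names the 3 probes nearest to each called member and, per list, the largest rise and fall. The further cDNAs named in the BELL, repressor and gibberellin lists, and the counts by oxidase type, were chosen after their values were seen. Alternatives were another offset, the deposited ratios, the series table, median centring, an intensity trend, other filters, averaged pairs, a random block, a dye term and each array left out.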

Additional observations from a re-analysis of the deposited data

Results flagged for a closer look

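For 4 KNOX cDNAs the log2 ratio of transgenic over wild type differed between the constructs, by limma's contrast of dsRNAi minus antisense (adjusted p under 0.05 over all probes). The difference was -2.96 for HOS66 (AK060316), with 2 of 2 dsRNAi arrays below both antisense arrays. It was -1.37 for HOS3 (AK111877), -1.02 for HOS9 (AK111878) and -0.69 for OSH43 (AK107296), again with both dsRNAi arrays below both antisense arrays. Of all tested probes, 10.1% passed with a lower ratio in dsRNAi, and 29.9% had both dsRNAi ratios below both antisense ratios. The call of OSH43 was lost with some single arrays left out. In the separate channel fit none of the 4 passed in the transgenic channels, and all 4 were higher in the wild type channels of the dsRNAi arrays, by 2.70 for HOS66, 1.57 for HOS3, 0.54 for HOS9 and 0.75 for OSH43. Of all tested probes, 2.45% passed in the transgenic channels, and 16.4% passed as higher in the wild type channels of the dsRNAi arrays. With median centring the 4 calls were lost (adjusted p = 0.238 for HOS66 and 1.00 for the others). The wild type RNA carried no construct, so in those channels the comparison is between sets of arrays. Construct, scan day and scanner software change together in these arrays and cannot be told apart, and the cause of the difference was not tested.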

How the results depend on the processing

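Of 336 values of single members under the alternatives, 299 kept direction and side of the threshold, 29 lost their call, 4 gained one and 4 changed sign. Several alternatives, such as the trend, the filters and the dye term, leave the log2 value itself unchanged. Values not called in either setting also count as kept, so the count of 299 is not a measure of robustness. The sign changes were in AK068954, dsRNAi minus antisense: -0.36 with the deposited log ratio, -0.57 with the series table, -0.42 with median centring and, with 1 array left out in turn, -0.13 to 0.41 (below 0 without antisense replicate 1). Probes called in the mean numbered 1096 with median centring, 2594 with construct as a random block and 0 with both pairs averaged (3407 at an unadjusted p under 0.05), against 7508. Members called numbered 2, 2 and 0 under these, against 5. With median centring, which leaves array medians between -0.20 and 0.26 over kept probes, 186 probes passed with dsRNAi, 837 with antisense and 32 for the difference, against 4639, 6693 and 2962. The series table gave 1794 for the difference. Without 1 array in turn the counts ran from 6251 to 7125 (mean), 3118 to 5033 (dsRNAi), 4607 to 7317 (antisense) and 2499 to 2736 (difference), with 4 to 5 members called. The lost member was AK068954, without antisense replicate 1 (adjusted p = 0.0602). The gap of class 1 to class 2 was -2.66 with offset 10, -3.15 with the deposited log ratio and -2.97 with the series table, and -2.68 to -1.89 without 1 array in turn. The trend, the filters, averaging, the random block and the dye term gave no separate value for it. For dim cDNAs the deposited log ratio, with no offset, gave larger sizes: -1.83 for AK068954 with dsRNAi (adjusted p = 0.0161). The calls lost with a random block were HOS9 (adjusted p = 0.0642), AK107637 (0.0791) and AK068954 (0.13). Gibberellin oxidases that fell numbered 2 with median centring or the random block, 4 with antisense arrays averaged and 0 with both pairs averaged, against 7. Each log ratio already pairs transgenic with wild type RNA on its array. No paired analysis was possible because, across constructs, the labels give no replicate numbers, and a dye term, which sets arrays of like dye together, changed no call of a member. The number of arrays limits the precision.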
